A study of Cricetulus griseus with 3 samples.

Results

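Lrp1, Lrp2, Lrp6 and Vldlr, 4 genes of the LDL receptor family, were represented on the array by 14 of its 17664 cDNA spots, and they make up 4 of the 8416 gene values that the named spots gave. Their spots were found by name in the array's current annotation. A spot was taken where its only name was Lrp2, Lrp6 or Vldlr, or where Lrp1 was one of its names. Lrp1, Lrp2 and Vldlr had spots that passed the test described below and Lrp6 had none. All 3 spots of Vldlr and 2 of the 4 spots of Lrp1 were lower in S-1 cells, while 1 of the 4 spots of Lrp2 was higher.

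The hamster S-1 line was compared with parental Chinese hamster ovary (CHO) cells, a fibroblast-like cell line grown in adherent culture, on 3 two-colour arrays, each holding RNA of 1 S-1 culture and 1 CHO culture. S-1 cells stably overexpress the 4 subunits of γ-secretase, as NCT-GST, PS1, Flag-PEN2 and APH1-a2-HA, were kept in G418, puromycin, zeocin, hygromycin and blasticidin, and are labelled as having 8-fold enhanced γ-secretase activity. They received the carrier alone, 0.05% DMSO, for 24 h. The CHO-WT cells come from the same mother line, were not transfected, and received the γ-secretase inhibitor DAPT at 10 µM in 0.05% DMSO for 24 h. The study also marks APP, a γ-secretase substrate, as overexpressed in S-1 cells. S-1 is 1 cell line. The transfected subunits, APP, the selection drugs, the history of the line and the inhibitor differ together between the groups and cannot be told apart. S-1 RNA was labelled with Cy3 on arrays 1 and 2 and with Cy5 on array 3. Values are log2 ratios, S-1 cells over CHO cells given DAPT, so a value below 0 is a lower signal in S-1 cells. A ratio holds no level, so the signal of one gene was not set against that of another and the identity of the cells was not checked against marker genes. In RNA from whole cultures, fewer cells that express a gene and less RNA in each cell cannot be told apart.

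The LDL receptor family consists of single-pass membrane receptors whose outer part is built from cysteine-rich ligand-binding repeats, EGF-like repeats and β-propeller domains, followed by a short cytoplasmic tail that binds adaptor proteins. Most members carry ligands into the cell by endocytosis, and several also pass on signals. Lrp1 clears proteases, their inhibitors, matrix proteins and lipoprotein remnants. Lrp2, also called megalin, retrieves vitamin carriers and small proteins from the fluid in kidney tubules and other epithelia. Lrp6 is a co-receptor for Wnt proteins, and Vldlr takes up triglyceride-rich lipoproteins and serves as a receptor for reelin. Proteins of the family can be shed by metalloproteases and then cut within the membrane by γ-secretase.

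The spots belong to clone collections, which the study's clone names mark by a first letter. Most spots have no clone name here, so each was assigned by its position in a print block, from the letters of the listed clones. This gave 15360 H spots, 960 P spots and 128 N spots. A further 480 were at positions for which no clone is listed, called unlisted here. The collections did not behave alike on these arrays. At an adjusted p of at most 0.005 in limma, 15.3% of H spots passed, 6.76% upwards, and 32.1% of P spots did. Unlisted spots had a median log2 ratio of 1.56 and 79.6% of them passed, 78.8% upwards. N spots had a median of 0.30, against 0.0016 for H and 0.03 for P spots. Of the 14 spots of the 4 receptor genes, 11 were H, 2 were P and 1 was unlisted, and each had a value on all 3 arrays. The 3 arrays correlated with r = 0.9619, 0.8783 and 0.8924 over the 16928 spots tested, the highest between the 2 arrays of the same dye orientation.

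Of the 14 spots, 6 passed the test (42.9%), 5 of them lower and 1 higher in S-1 cells. Over all 16928 tested spots 18.2% passed, 8.52% lower and 9.68% higher. The median of the 14 was −0.12, against 0.01 over all spots. The 8 spots that did not pass had means between −0.18 and 0.24, adjusted p-values from 0.0679 to 0.664 and 95% intervals that lay within −0.33 and 0.46. For 3 of these 8 the unadjusted p was under 0.05. Without array 2, 3 of the 14 spots passed. With 4 genes behind 14 spots, these shares describe clones that share targets, and they are not replicates of the receptor family.

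**Figure D1:**
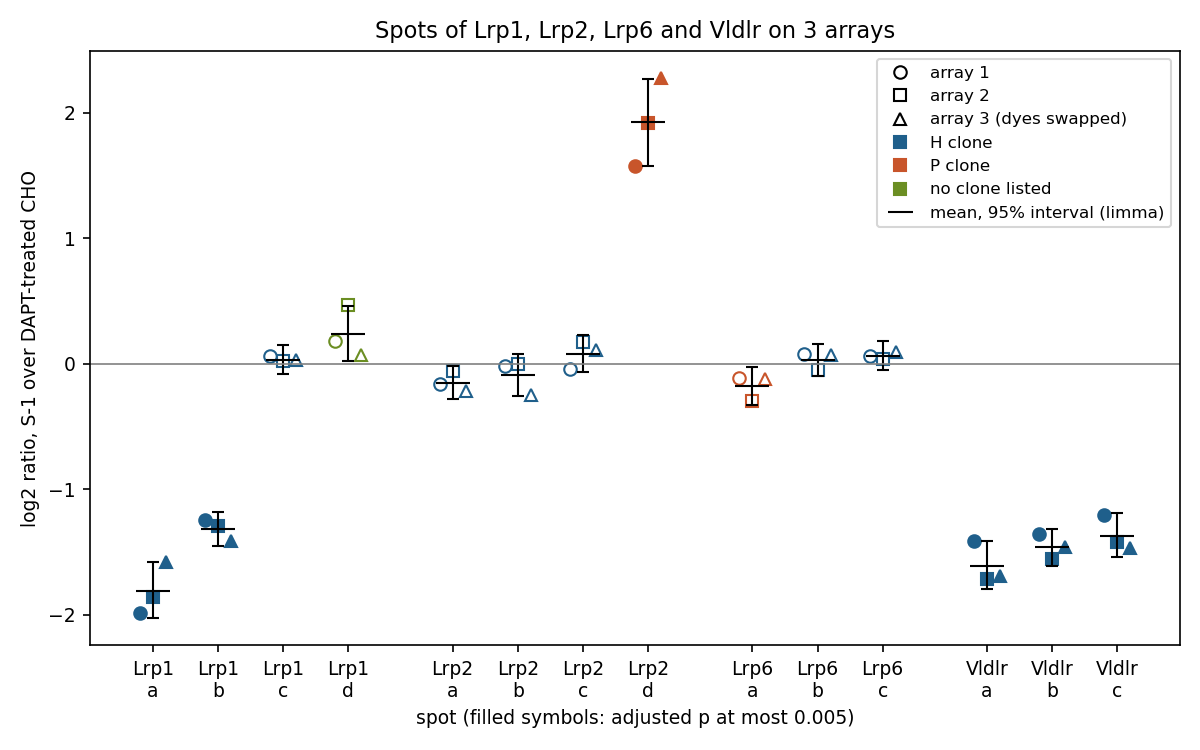
Log2 ratio of S-1 cells over CHO cells given DAPT (vertical axis) for the 14 spots of Lrp1, Lrp2, Lrp6 and Vldlr, with 1 symbol per array, the mean as a horizontal line and its 95% interval from limma as a bar. Filled symbols mark the 6 spots that passed. The 3 Vldlr spots lie together below −1, the Lrp1 spots split into 2 low and 2 near 0, and 1 of the 4 Lrp2 spots stands near 2.

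Vldlr was lower in S-1 cells on every spot that represents it. The first clone, H3096H12, had log2 ratios of −1.41, −1.72 and −1.69 on arrays 1, 2 and 3. The second, H3097H12, gave −1.36, −1.56 and −1.46, and the third, H3005H08, gave −1.21, −1.42 and −1.47. All 9 values lay far below 0, array 1 was the highest of the 3 arrays for each clone, and the dye-swapped array 3 stayed within the range of the others or within 0.16 of their mean. The means were −1.61 ± 0.17 (SD, n = 3; adjusted p = 1.80e-04, limma), −1.46 ± 0.10 (adjusted p = 1.28e-04) and −1.37 ± 0.14 (adjusted p = 2.01e-04). On a linear scale the signal in S-1 cells was 3.04-, 2.76- and 2.58-fold lower. The 3 spots ranked 55th, 73rd and 85th from the lowest among the 15360 H spots. Without array 2 the last of them, H3005H08, was at −1.34 and missed the threshold (adjusted p = 0.00615, limma).

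The 3 Vldlr clones also gave like sizes of change. Their means spanned 0.24 on the log2 scale, and the median span over the 667 genes with 3 spots was 0.31. Of those genes 405 had a span at least as wide. Among the 274 of them with at least 1 spot past the threshold, 33 had all 3 spots past it in 1 direction, as Vldlr did, and 169 had only 1. The clones H3097H12 and H3005H08 were printed in the same block, which the study normalised as a unit, and H3096H12 in another. Whether the clones cover the same stretch of the transcript was not tested. Averaged over its spots, Vldlr had gene values of −1.33, −1.57 and −1.54 on the 3 arrays and a mean of −1.48 ± 0.13 (SD, n = 3; adjusted p = 1.56e-04, limma), where 22.6% of all 8416 gene values passed and 10.2% were lower.

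Lrp1 differed from clone to clone. All 4 of its spots carry a joined annotation with Nxph4, which encodes a secreted neurexophilin, so the annotation alone does not tell which of these genes a spot measures. Both clones that passed are listed by the study under Lrp1. Clone H3146C12 had log2 ratios of −1.99, −1.86 and −1.58, and clone H3105A05 had −1.25, −1.29 and −1.41. Every value was below −1, and the clones moved in opposite orders, with array 3 the highest for the first and the lowest for the second. Their means were −1.81 ± 0.21 (SD, n = 3; adjusted p = 1.97e-04, limma) and −1.32 ± 0.08 (adjusted p = 1.35e-04), which are 3.5- and 2.49-fold lower signals in S-1 cells. They ranked 39th and 93rd from the lowest among the H spots, so that the first was the lowest of the 14 receptor spots. Without array 2 the first was at −1.78 and missed the threshold (adjusted p = 0.00585, limma).

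The other Lrp1 spots did not pass. The remaining H spot, for which no clone is listed among those the study called, had log2 ratios of 0.06, 0.02 and 0.03. Its mean of 0.03 ± 0.02 (SD, n = 3; adjusted p = 0.574, limma) had a 95% interval from −0.08 to 0.15, well away from those of the 2 fallen clones (−2.03 to −1.58 and −1.45 to −1.18). The unlisted spot gave 0.18, 0.47 and 0.07, a mean of 0.24 ± 0.21 (adjusted p = 0.0837). These values were above 0 on every array, and without array 3 the spot passed at 0.32 (adjusted p = 0.00425, limma), but in its own group of 480 spots, where most values were high, it ranked 73rd from the lowest. With each clone collection centred on its own median, an alternative chosen after the values were seen, the unlisted Lrp1 spot read −1.31 (adjusted p = 5.03e-04, limma) and joined the fallen spots.

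The 4 Lrp1 spots spanned 2.05 on the log2 scale. The median span of the 231 genes with 4 spots was 0.40, and 15 of them had a span at least as wide as that of Lrp1. The gene value, a mean over clones that differ, was −0.75, −0.67 and −0.72 on the 3 arrays, −0.71 ± 0.04 in all (SD, n = 3; adjusted p = 3.63e-04, limma). From the H spots alone it was −1.03. Lrp1 was therefore called lower in both ways of averaging, at a size that lies between its fallen and its flat spots and describes none of them.

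Lrp2 was higher in S-1 cells on 1 of its 4 spots. Clone P869 had log2 ratios of 1.58, 1.92 and 2.28, and the dye-swapped array 3 gave the highest, 0.53 above the mean of arrays 1 and 2. The mean was 1.93 ± 0.35 (SD, n = 3; adjusted p = 5.57e-04, limma), a 3.8-fold higher signal in S-1 cells. It ranked 14th from the highest among the 960 P spots, of which 19.3% were called higher. The SD was the widest of the 14 receptor spots, and without array 2 the clone missed the threshold (1.93, adjusted p = 0.0107, limma).

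The 3 H spots of Lrp2 stayed near 0. They gave −0.16, −0.06 and −0.22 on arrays 1 to 3 for the first, −0.02, −0.0017 and −0.25 for the second, and −0.04, 0.17 and 0.11 for the third. The first was slightly below 0 on each array and the third lay on both sides of 0. Their means were −0.15 ± 0.08, −0.09 ± 0.14 and 0.08 ± 0.11 (SD, n = 3), with adjusted p-values in limma of 0.0772, 0.332 and 0.336. Their 95% intervals lay between −0.28 and 0.23, which leaves out the value of the P clone. On each array the P clone exceeded the mean of the H spots, by 1.66, 1.88 and 2.40, a difference of 1.98 ± 0.38 (SD, n = 3). An exact two-sided sign permutation test gave p = 0.25, the smallest that 3 arrays allow.

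The gene value of Lrp2 rested on that clone. It was 0.34, 0.50 and 0.48 on the 3 arrays, 0.44 ± 0.09 in all (SD, n = 3; adjusted p = 0.00243, limma). With H spots alone it was −0.05 (adjusted p = 0.421), and with the median of the spots in place of the mean it was −0.00078 (adjusted p = 0.992), so the direction and the call both depended on 1 spot of 4. The call was also lost without array 1 (0.49, adjusted p = 0.00938, limma) or without array 2 (0.41, adjusted p = 0.0238). The span of the Lrp2 spots was 2.07, and 14 of the 231 genes with 4 spots had a span at least as wide. A single called spot was common: it was found in 55 of the 107 genes with 4 spots and at least 1 call, against 8 in which all 4 passed in 1 direction.

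Lrp6 did not pass on any spot. The P spot had log2 ratios of −0.11, −0.30 and −0.12, the first H spot 0.08, −0.05 and 0.07, and the second H spot 0.06, 0.04 and 0.09. The P spot was below 0 and the second H spot above 0 on each array, and all 9 values were small. The means were −0.18 ± 0.11, 0.03 ± 0.07 and 0.06 ± 0.03 (SD, n = 3), with adjusted p-values in limma of 0.0679, 0.664 and 0.312. For the gene as a whole the value was −0.03 ± 0.07 (adjusted p = 0.672, limma) with a 95% interval from −0.15 to 0.10. That interval is not the detection limit of the test. Larger gene values with a like standard error also missed the threshold, such as Pafah1b1 at 0.27 (adjusted p = 0.00728, limma). Unlike Lrp2, its P spot was the lowest of its spots, and 400 of the 667 genes with 3 spots had a span at least as wide as its 0.24.

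**Figure D2:**
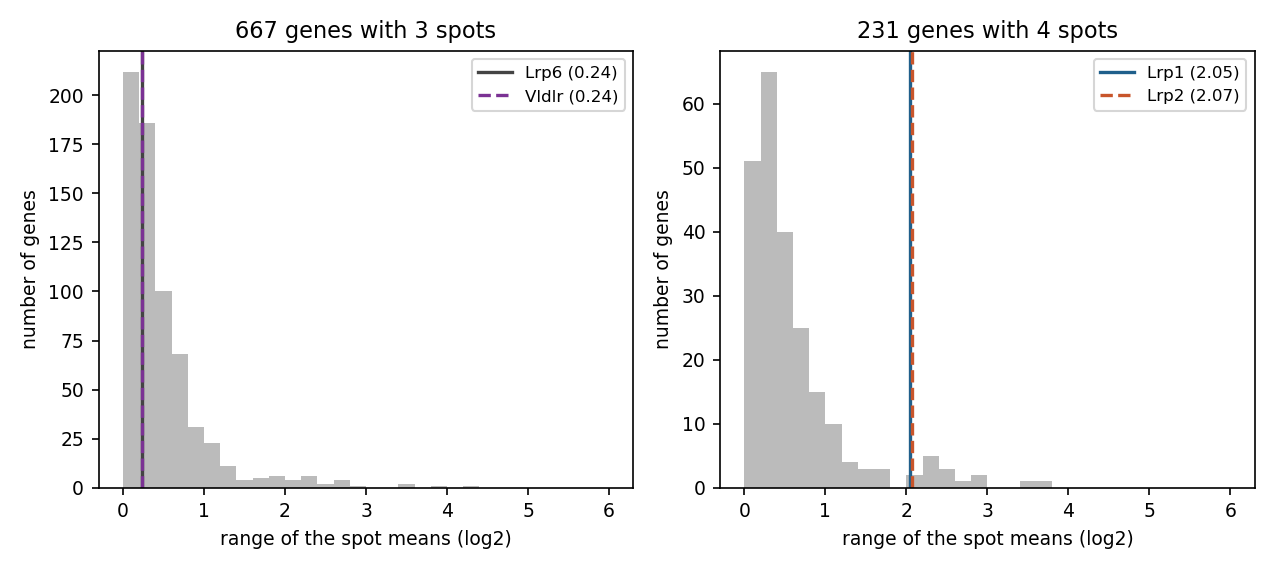
Number of genes (vertical axis) by the range of the mean log2 ratios of their spots (horizontal axis), for the 667 genes with 3 spots (left) and the 231 genes with 4 spots (right). Lines mark Lrp6 and Vldlr, both at 0.24 against a median of 0.31, and Lrp1 and Lrp2, at 2.05 and 2.07 against a median of 0.40.

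Spots of the same gene were compared within each array, in 18 pairs. The difference had the same sign on all 3 arrays in 14 pairs, namely 6 of 6 for Lrp1, 4 of 6 for Lrp2, 2 of 3 for Lrp6 and 2 of 3 for Vldlr. Exact two-sided sign permutation tests gave p = 0.25 for those 14 pairs and 0.50 for the others (0.32 and 0.50 after Benjamini-Hochberg adjustment over the 18 pairs), and with 3 arrays none could have gone lower than 0.25. In size the pairs differed widely. Between Vldlr spots the mean differences were 0.10 to 0.24 and between Lrp6 spots 0.03 to 0.24. The fallen and the flat H clones of Lrp1 lay 1.84 and 1.35 apart, with an SD of 0.22 and 0.08 over the arrays.

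The sign of every spot that passed was the same in both dye orientations. A spot with opposite signs could hardly pass with 3 arrays, so this is not a separate check of the dyes. For Lrp1 clone H3146C12 array 3 was 0.35 above the mean of arrays 1 and 2, and for clone H3105A05 it was 0.14 below, so the 2 fallen Lrp1 clones deviated in opposite directions on that array. Array 3 differs from the others in its cultures as well as its dyes, which cannot be told apart here. The Vldlr clones moved by −0.12, 0.0027 and −0.16. All of these shifts were small against the ratios themselves. The 5 fallen spots are all H clones and the risen one is a P clone.

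**Figure D3:**
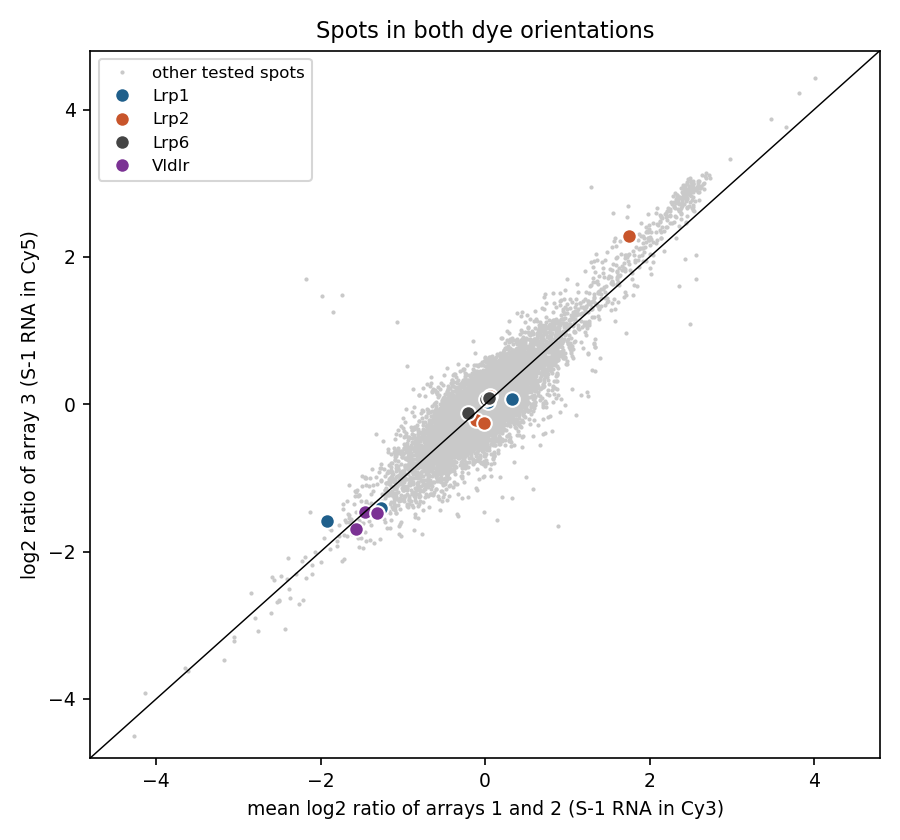
Mean log2 ratio of arrays 1 and 2, with S-1 RNA in Cy3 (horizontal axis), against the log2 ratio of array 3, with S-1 RNA in Cy5 (vertical axis). Grey points are the other tested spots, coloured points are the receptor spots and the line marks equal values. The Vldlr spots and both fallen Lrp1 clones lie at the lower left near the line, and Lrp2 clone P869 at the upper right lies 0.53 above it.

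Other genes gave nearly the same 3 values as each receptor, by the root mean squared difference of the gene values over the 3 arrays, which here compares single numbers per array and says little about genes near 0. Nearest to Vldlr were Egln1, an oxygen-sensing prolyl hydroxylase, at a difference of 0.050, the endoplasmic reticulum-phagy regulator gene Retreg3 at 0.098 and the chemokine gene Cxcl12 at 0.104, with gene values of −1.44, −1.53 and −1.40. Nearest to Lrp1 were the α-catenin-like gene Ctnnal1 (0.022), the Wnt-pathway nuclear gene Pygo1 (0.036) and the transaminase gene Gpt2 (0.037). Nearest to Lrp2 were the EGF family ligand gene Ereg (0.013), the Lrp6 antagonist gene Dkk1 (0.013) and the transcription factor gene Neurod4 (0.014). Nearest to Lrp6 were the transcription factor gene Creb3l2 (0.009), Gas6 (0.010), which encodes a ligand of receptor kinases, and the membrane protein gene Heg1 (0.011), none of which passed. Vldlr had no neighbour as close as those of the other receptors. The gene values of Lrp1 and Lrp2 are means over spots that differ, so their neighbours match an average and none of the spots.

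The genes that work with these receptors were counted in 7 lists, by gene values. Of 123 listed genes with a value, 22 were called higher, 31 lower and 70 did not pass, so that 43.1% were called against 22.6% of all gene values. Most of the calls upwards came with unlisted spots. From H spots alone, 91 of the genes had a value, of which 3 were called higher and 26 lower (31.9%, against 18.9% of all gene values from H spots, 8.15% higher and 10.7% lower). The balance of higher and lower calls was not stable. Without array 1, 15 genes were called higher and 11 lower, without array 2 the counts were 13 and 7, and with control spots included in the fit 9 and 4.

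None of the other 4 receptors of the family with a gene value under a name of their own passed in limma. Of all gene values 22.6% passed, and 4 genes are too few to set against that share. For 1 of them, Lrp10, the unadjusted p in limma was under 0.05. Lrp10, a sorting receptor of the Golgi and endosomes, had log2 ratios of −0.54, −0.73 and −1.24 on the 3 arrays, a mean of −0.84 ± 0.36 (SD, n = 3; adjusted p = 0.00692, limma), just outside the threshold. It was below 0 on every array and lowest on array 3, without which it passed in limma, at −0.64. Sorl1, a sorting receptor of endosomes, was at −0.07 (adjusted p = 0.198), Ldlrad4, a regulator of TGF-β signalling, at −0.03 (adjusted p = 0.694) and Lrp12 at 0.11 (adjusted p = 0.231). A spot with the joined names of Lrp1b, a close relative of Lrp1, and Ran was at 0.13 (adjusted p = 0.176). A P spot without a name in the annotation is listed by the study as clone P177 of Lrp8, the second reelin receptor, and was picked out after its value was seen. It had log2 ratios of 0.35, 0.54 and 0.62, a mean of 0.50 ± 0.14 (SD, n = 3; adjusted p = 0.00396, limma). The Lrp8 spot was thus above 0 on each array, while all 3 spots of the related Vldlr were below. The Lrp8 spot is a P spot and the Vldlr spots are H spots, so gene and collection cannot be told apart in this contrast. Of all P spots 19.3% were called higher, against 6.76% of H spots.

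Of 14 chaperones, co-receptors and adaptors, 3 were called lower and 1 higher, with a median of −0.15 against 0.01 over all gene values. Over all gene values 10.2% were called lower and 12.4% higher. Lrpap1 encodes RAP, the endoplasmic reticulum chaperone that keeps newly made receptors of the family from binding ligands early. Its gene values were −0.37, −0.52 and −0.56, a mean of −0.48 ± 0.10 (SD, n = 3; adjusted p = 0.00209, limma), and both of its H clones passed on their own, at −0.52 and −0.45. Dab2, an adaptor that links receptor tails to the clathrin coat, was at −0.47 ± 0.04 (adjusted p = 0.00114), with 3 called spots between −0.95 and −0.52 and an unlisted spot at 0.14. Pdgfrb, a receptor kinase that associates with Lrp1, was at −0.78 ± 0.10 (adjusted p = 5.26e-04), lower on both an H and a P clone. The scaffold gene Mapk8ip2 was at 0.85, through an unlisted spot at 2.39 beside H spots at 0.16 and −0.0025. The adaptors Dab1, Numb, Gulp1 and Snx17 did not pass, with gene values between −0.15 and 0.11, although 1 of the 4 Numb spots did, at 0.42. Without array 1 or without array 2, 1 gene was called lower and 1 higher.

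Of 35 ligands of Lrp1 and Lrp2, 11 were called lower and 5 higher, with a median of −0.18. The shares over all gene values were 10.2% lower and 12.4% higher. The matrix glycoprotein gene Fn1, fibronectin, was the lowest at −2.11 ± 0.07 (SD, n = 3; adjusted p = 1.33e-04, limma), lower on an H clone (−2.30) and a P clone (−1.91) alike. The protease and inhibitor ligands Plau, urokinase, and Timp1 were at −1.17 and −1.16, the basement membrane gene Nid1 at −0.97 on average over 3 called clones, the chaperone gene Calr at −0.65 and B2m, the light chain of major histocompatibility complex class I, at −0.61. The ligand genes called higher were Rbp4 (2.21), Apob (1.48), Thbs1 (1.10), Mmp13 (0.40) and Tgfb1 (0.32), and all except Mmp13 included an unlisted spot. The H spot of Apob was at 0.25. App, overexpressed in S-1 cells, was at 0.50 and did not pass (adjusted p = 0.0192, limma). Of its 3 H spots, clone H3132G02 passed at 1.81 and the others were at −0.25 and −0.07. From H spots alone, 24 ligand genes had a value, 8 were called lower and none higher. Among all gene values from H spots, 10.7% were lower and 8.15% higher. Without array 1 the counts over all ligand genes were 5 lower and 4 higher, and without array 2 they were 4 and 2.

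Reelin binds Vldlr and Lrp8 and acts through the adaptor Dab1 and Src family kinases. Of 17 genes of that pathway, 2 were called lower, 2 higher and 13 did not pass, with a median of 0.02. The share called was close to the 22.6% of all gene values, of which 10.2% were lower and 12.4% higher. The kinase gene Src was at −0.77 ± 0.16 (SD, n = 3; adjusted p = 0.00123, limma) and the adaptor gene Crk at −0.35 (adjusted p = 0.0029). Limk1, a kinase of actin turnover, was at 0.34 (adjusted p = 0.00452), and Crkl, the other Crk adaptor, was at 1.85 on an unlisted spot alone. Dab1 itself was at −0.15 (adjusted p = 0.0387). Some genes that did not pass had called spots. Fyn was at 0.31 (adjusted p = 0.015, limma), with an H clone at −0.51 and an unlisted spot at 1.13 that both passed. Pik3r1 was at 0.34, with an unlisted spot at 1.63 that passed and H spots at −0.33 and −0.29 that did not. An H clone of Pafah1b1 at 0.80 and an unlisted Gsk3b spot at 0.86 also passed. Without array 1 or without array 2, no gene of the pathway was called lower in limma (4 and 3 at an unadjusted p under 0.05) and 1, Crkl, was called higher. Without array 3, 3 were called lower and 5 higher.

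Around Lrp6, 8 of 28 genes of Wnt co-receptor signalling were called lower and 3 higher, with a median of −0.13. Over all gene values 10.2% were called lower and 12.4% higher. Without array 2 no gene of the list was called lower in limma (9 at an unadjusted p under 0.05) and 2 were called higher, without array 1 the counts were 3 and 2, and with control spots included 0 (11 at an unadjusted p under 0.05) and 1. Those lower included Dkk2 at −0.63 and the Dickkopf receptor gene Kremen1 at −0.72. Dkk3, another gene of the Dickkopf family, was at −0.86, and whether its product acts on Lrp6 was not tested. Dkk1, whose product binds Lrp6 and blocks Wnt signalling, was at 0.45 ± 0.08 (SD, n = 3; adjusted p = 0.00216, limma), from a P clone at 0.74 that passed and an H spot at 0.16 that did not. The Frizzled receptor genes split, with Fzd5 (−0.82), Fzd7 (−0.49) and Fzd4 (−0.45) lower and Fzd1 (1.24, on an N clone alone) higher. Inside the cell, Csnk1d, a casein kinase, was at −0.57 and Ctnnb1, β-catenin, at −0.52, while Dvl3, a scaffold that Frizzled recruits, was at 1.70. The 2 spots of Dvl3 were an N clone at 1.68 and an unlisted spot at 1.72. The kinases and scaffolds Gsk3b, Axin1 and Csnk1a1 did not pass, at 0.33, −0.17 and 0.12, although an unlisted Gsk3b spot at 0.86 and an H spot of Axin1 at −0.39 did.

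Among 9 genes of proteases that cut these receptors, 3 were called lower and 2 higher, with a median of −0.10. The shares over all gene values were 10.2% lower and 12.4% higher. The 2 higher ones, Psenen (3.09) and Aph1a (2.02), are genes of transfected subunits. Ncstn, the gene of the transfected NCT, was at 0.38 ± 0.25 (SD, n = 3) and did not pass (adjusted p = 0.0312, limma). The sheddase genes Mmp14 and Adam10 were lower, at −1.58 ± 0.29 (SD, n = 3; adjusted p = 5.79e-04, limma) and −0.58 ± 0.06 (adjusted p = 8.00e-04), and Bace1 was at −0.39 (adjusted p = 0.00438). Mmp14 encodes a membrane metalloprotease that sheds Lrp1. The gene values of 2 further proteases lay near 0 because their spots opposed each other. Adam17, another sheddase, had an H clone at 0.49 that passed (adjusted p = 0.00208), an H spot at −0.59 (adjusted p = 0.00539) and a P spot at −0.20, and its gene value was −0.10 (adjusted p = 0.233). Furin, which cleaves Lrp1 as it matures, had a P clone at −0.56 that passed (adjusted p = 0.00277) and an N spot at 0.56 (adjusted p = 0.013), and its gene value was −0.0012 (adjusted p = 0.992). Without array 1 or without array 2, 1 gene of the list, Mmp14, was called lower.

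Of 18 genes of sterol synthesis, its regulation and sterol transport, 9 were called higher and 4 lower, with a median of 0.41. Over all gene values 12.4% were called higher and 10.2% lower. All 9 called higher had unlisted spots, led by Srebf2 (2.10), Pmvk (2.01), Abca1 (1.42) and Srebf1 (1.20). The H spots went the other way: of 12 sterol genes with such a value, 5 were called lower and none higher, with a median of −0.25. Among all gene values from H spots, 10.7% were lower and 8.15% higher. The cholesterol synthesis gene Hmgcs1 had a single spot, an H clone at −1.07. For the synthesis genes Sqle and Idi1 the collections opposed each other, with all spots past the threshold. Sqle had an H clone at −1.54 and an unlisted spot at 0.72, and Idi1 had an H clone at −0.48 and an unlisted spot at 2.28. Without array 1 or without array 2, 5 sterol genes were called higher and 1 lower. Which collection reads these genes correctly was not tested.

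**Figure D4:**
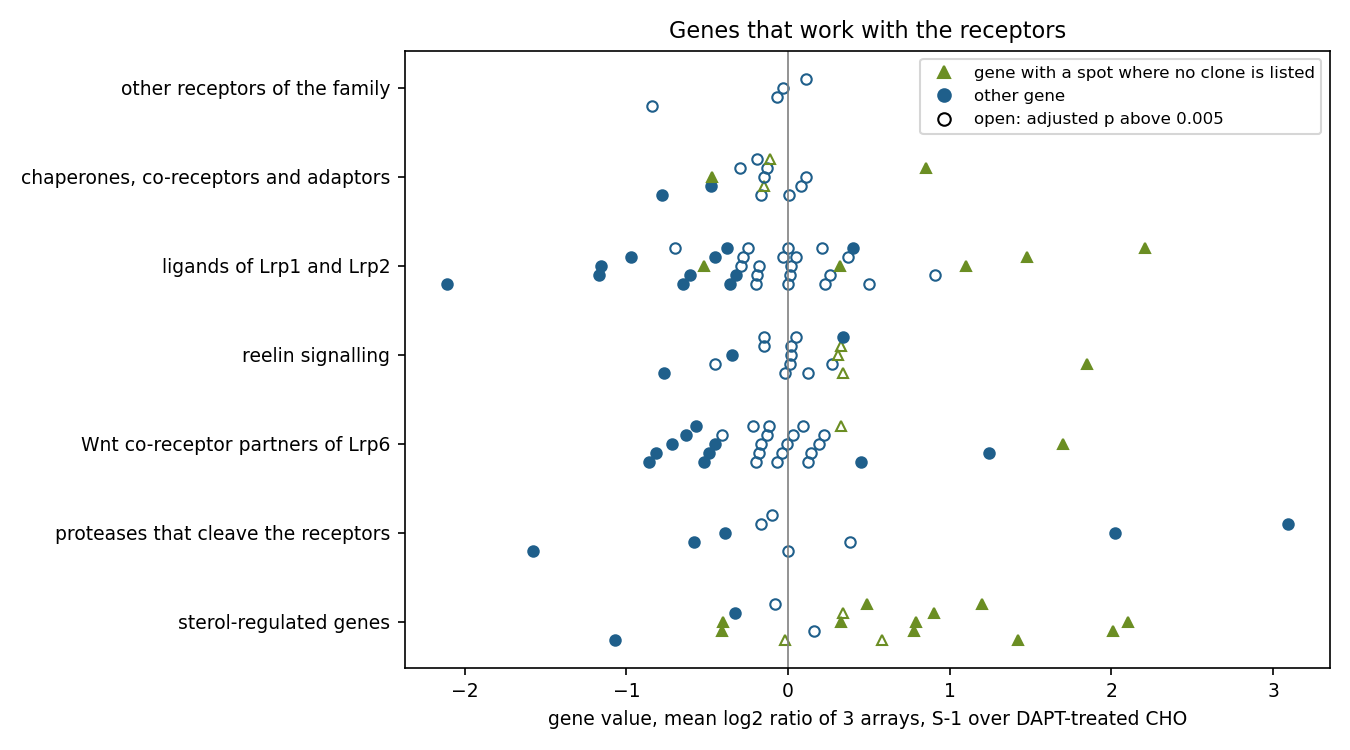
Gene value, the mean log2 ratio over 3 arrays, S-1 cells over CHO cells given DAPT (horizontal axis), for the genes of 7 lists (rows), 1 point per gene, spread vertically only for legibility. Filled symbols passed the test and triangles are genes with at least 1 unlisted spot. Most points above 1 are triangles, and the called genes among the other points of the ligand and Wnt lists lie mostly below 0.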

How the data were processed

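RNA of 3 S-1 and 3 DAPT-treated CHO cultures (hamster) was hybridised in pairs to a mouse cDNA array, with dyes swapped on array 3. The deposited log2 values, 1 per spot and array, are ratios that the authors made from GenePix scans without background subtraction and normalised by print-tip group lowess in limma. Signal intensities were not used here, so precision is set by the number of arrays. Hamster RNA on mouse probes can weaken a signal where sequences differ.

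No further normalisation was applied and no filter on low values. At 23 positions of each of 32 blocks, 736 unnamed spots followed the dye (r = 0.9895 between arrays 1 and 2, −0.9603 between arrays 1 and 3). Once these values had been seen, they were taken as controls and not tested. The other 16928 spots were tested in limma 3.58.1 (R 4.3.3) against 0, with Benjamini-Hochberg adjustment over all of them and the study's threshold of 0.005. Gene values are means over the spots of a name (8416, spots with joined names under the joined name) and were fitted alike. Tests of differences between spots were exact sign permutations in Python 3.11.15.

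The direction of the ratios is not given in the labels. It was taken from the study's lists of called clones. These lists served otherwise only for clone names and for the collection of each block position. A clone was paired with a spot where its listed fold matched 2 times the linear ratio of the spot (relative tolerance 1e-05). The reason for the multiple was not tested. Of spots so paired, 1175 of 1175 on the list of increased clones were above 0 and 1363 of 1365 on the list of decreased clones below. Of 2540 clones, 2538 had the letter that marks their position in a block. The letters of the positions were read from these same clones, so the match is not an independent check. Positions without a listed clone are called unlisted.

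The genes named are every spot of the 4 receptors, all other receptors of the family with a gene value, up to 6 called genes per list and direction by size, and the 3 genes with 1 name nearest to each receptor. Psenen and Aph1a, 2 of the transfected subunits, served to check the direction. Genes named outside this rule, such as list members that did not pass, were chosen after their values were seen. The receptors and the 7 lists were chosen with earlier results of these data known. No p-value was computed for a list. The fit was tested on simulated arrays. Alternatives were a threshold of 0.05, other scalings of the arrays, a dye coefficient, array weights, a robust prior, the median of spots, H spots alone, controls included and each array left out, and, added later, unlisted spots left out and each collection centred.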

Additional observations from a re-analysis of the deposited data

How the results depend on the processing

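Vldlr and Lrp1 kept their direction and their call as gene values in every alternative run, and 2 of the 3 Vldlr spots and 1 of the 2 fallen Lrp1 spots also kept theirs. With 1 array left out, Lrp1 clone H3146C12 ranged from −1.92 to −1.72, Lrp2 clone P869 from 1.75 to 2.10, Vldlr clone H3005H08 from −1.45 to −1.31 and the unlisted Lrp1 spot from 0.13 to 0.32. Without array 2 the limma calls were lost for Lrp1 clone H3146C12 (−1.78, adjusted p = 0.00585), Vldlr clone H3005H08 (−1.34, adjusted p = 0.00615) and Lrp2 clone P869 (1.93, adjusted p = 0.0107), and 3 of the 14 spots passed in place of 6, against 7 without array 3. The unlisted Lrp1 spot passed without array 3 (adjusted p = 0.00425) and read −1.31 with each collection centred. The Lrp2 gene value lost its call without array 1 (0.49) or array 2 (0.41) and with controls included (0.44), and changed sign with the median of spots (−0.00078) and with H spots alone (−0.05). The Lrp6 gene value, never past the threshold, was −0.05 to 0.01 with 1 array left out, 0.03 with the median and 0.05 with H spots alone.

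Over all spots 3080 passed, and 5393 with array weights, 1186 with controls included, 6835 with a dye coefficient, 6733 at 0.05 and 363 to 6265 with 1 array left out. Arrays 1 and 2 alone do not separate dye and cell line. For gene values the counts were 1899, 3231, 341, 3734, 3879 and 487 to 3358 in the same order. Of the listed genes 53 passed, and 29 with H spots alone, 13 with controls included, 81 with a dye coefficient, 82 at 0.05, 26 without array 1, 20 without array 2 and 71 without array 3.

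Values that changed sign with each collection centred were Abca1 (−0.13), Cyp51 (−1.22), Mvk (−0.77), Npc1 (−0.03), Tgfb1 (−0.61) and Thbs1 (−0.46). Without unlisted spots Idi1 (−0.48), Mvd (−0.17) and Tgfb1 (−0.03) did so, the first 2 also with H spots alone. Near 0, so did Creb3l2 (0.004; −0.05 to 0.004 over the arrays left out), Gas6 (−0.04 to 0.02) and Heg1 (0.0022; −0.06 to 0.0022) without array 2 and Ldlrad4 (0.01 with array weights; −0.07 to 0.01) without array 3. The causes were not tested. Each ratio already pairs an S-1 with a CHO culture, so the test against 0 is a paired one. No further pairing was possible because the labels give 1 group of arrays. The intervals of the receptor spots that did not pass bound the measured ratios, not the change in RNA. Signal intensities were not used, so whether these spots held enough signal to show a change was not tested.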
